A study of Mus musculus with 60 samples.

Results

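The sarcomas and liver tumours of mice that carry the CD74-NRG1 fusion gene were compared with each other and with normal tissue by 3′ end RNA sequencing. CD74-NRG1 joins part of CD74, the invariant chain of MHC class II, to the receptor-binding part of neuregulin 1. All 10 tumour libraries, and the normal tissues set beside them, came from Rosa26CD74-NRG1/Flp mice, in which a transgene in the Rosa26 locus is switched on in nearly every tissue after a Flp deleter removes its stop cassette in the early embryo. By their labels the normal tissues carried the transgene too, and no tissue labelled as free of it entered these comparisons. The 10 libraries were taken by their labels, out of 60 libraries in the series and 42 from tissue: 7 titled sarcoma, from 6 mice, and 3 labelled as liver tumour, from 3 mice. Mouse M00245 gave 2 sarcoma libraries, whose counts were added so that each mouse counted once (n = 6 sarcomas and n = 3 liver tumours). The liver tumours came from mice M00236, M00248 and M00249; mice M00236 and M00248 also gave a sarcoma, and the library of mouse M00249 is titled liver and carries the tumour label. Normal muscle (n = 6 mice) stood beside sarcoma and normal liver (n = 8 mice) beside liver tumour. The labels do not say in which tissue the sarcomas grew, so muscle was a choice, and normal lung (n = 7 mice) served as its alternative. Ages were not given.

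Neuregulin 1 binds the receptors ErbB3 and ErbB4, which signal in pairs with ErbB2, and ERK kinase lies downstream of them. Cells of the Schwann lineage, which wrap peripheral nerves and come from the neural crest, depend on neuregulin 1 and ErbB3 during development. Hepatocytes make most plasma proteins, albumin among them, and express alpha-fetoprotein mainly before birth and in some liver tumours.

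Sarcoma libraries held 4837440 to 7953142 deposited counts, liver tumour libraries 7898819 to 10089572, normal muscle 7705638 to 10033943 and normal liver 6926521 to 9800343. Mitochondrial genes took 8.37 ± 2.52% of the counts in sarcomas and 15.2 ± 5.18% in liver tumours (SD, n = 6 and 3; exact permutation test, two-sided p = 0.0238, where 0.0119 is the smallest that this design can give), and the groups overlapped. One mouse stood apart against its label: Nrg1 was at 1.60 scaled CPM in the normal muscle and 1.04 scaled CPM in the normal liver of mouse M00246, against 33.7 to 51.8 scaled CPM in the other muscles and 42.5 to 124.5 scaled CPM in the other livers. Scaled CPM are counts relative to the library total (CPM) after TMM scaling, a correction for libraries in which a few genes take many of the counts. The sarcomas held muscle and skin transcripts in unequal amounts, whose source was not tested. The summed level of 19 myogenic and sarcomere genes ran from 72.6 to 4515 scaled CPM in sarcomas, against 38.9 to 50.02 scaled CPM in liver tumours, and 24640 to 57860 scaled CPM in normal muscle. That of 10 skin keratinocyte genes ran from 295.1 to 4109 scaled CPM in sarcomas, against 22.8 to 67.0 scaled CPM in liver tumours, and 5020 to 11870 scaled CPM in normal muscle. In bulk tissue, fewer cells of a type and less RNA per cell cannot be told apart.

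The lineage markers fitted the labels of every tumour. Sox10, the transcription factor of neural crest and glia, was at 607, 346.4, 408.9, 394.3, 409.9 and 404.9 scaled CPM in the sarcomas of mice M00235, M00236, M00237, M00238, M00245 and M00248, against 2.09, 0.64 and 0.154 scaled CPM in the liver tumours of mice M00236, M00248 and M00249. Erbb3 was at 127.2 to 210.5 scaled CPM in sarcomas, with a median of 183 scaled CPM, against 15.4, 24.3 and 30.8 scaled CPM in liver tumours. The groups did not overlap for either gene; of all genes tested, 27.5% lay higher in sarcoma without overlap and 22.1% lower. Alb, the gene of serum albumin, was at 33.4 to 116.2 scaled CPM in sarcomas, close to the 47.4 to 114.1 scaled CPM of normal muscle, against 7970, 89650 and 36830 scaled CPM in liver tumours. Afp was at 0 to 0.33 scaled CPM in sarcomas, against 15.3, 470 and 21.7 scaled CPM in liver tumours, where 1 tumour was far above the other two. The log2 fold changes of sarcoma over liver tumour were 8.82 ± 0.68 for Sox10, 2.89 ± 0.32 for Erbb3, -9.33 ± 0.75 for Alb and -10.25 ± 1.24 for Afp (± SE; edgeR quasi-likelihood test, adjusted p = 1.43e-06, 2.44e-05, 2.07e-06 and 5.25e-05). In the 2 mice with both tumours, Sox10 was higher in the sarcoma by 6.81 and 7.95 on the log2 scale (M00236 and M00248, a pseudocount of 1 added).

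**Figure D1:**
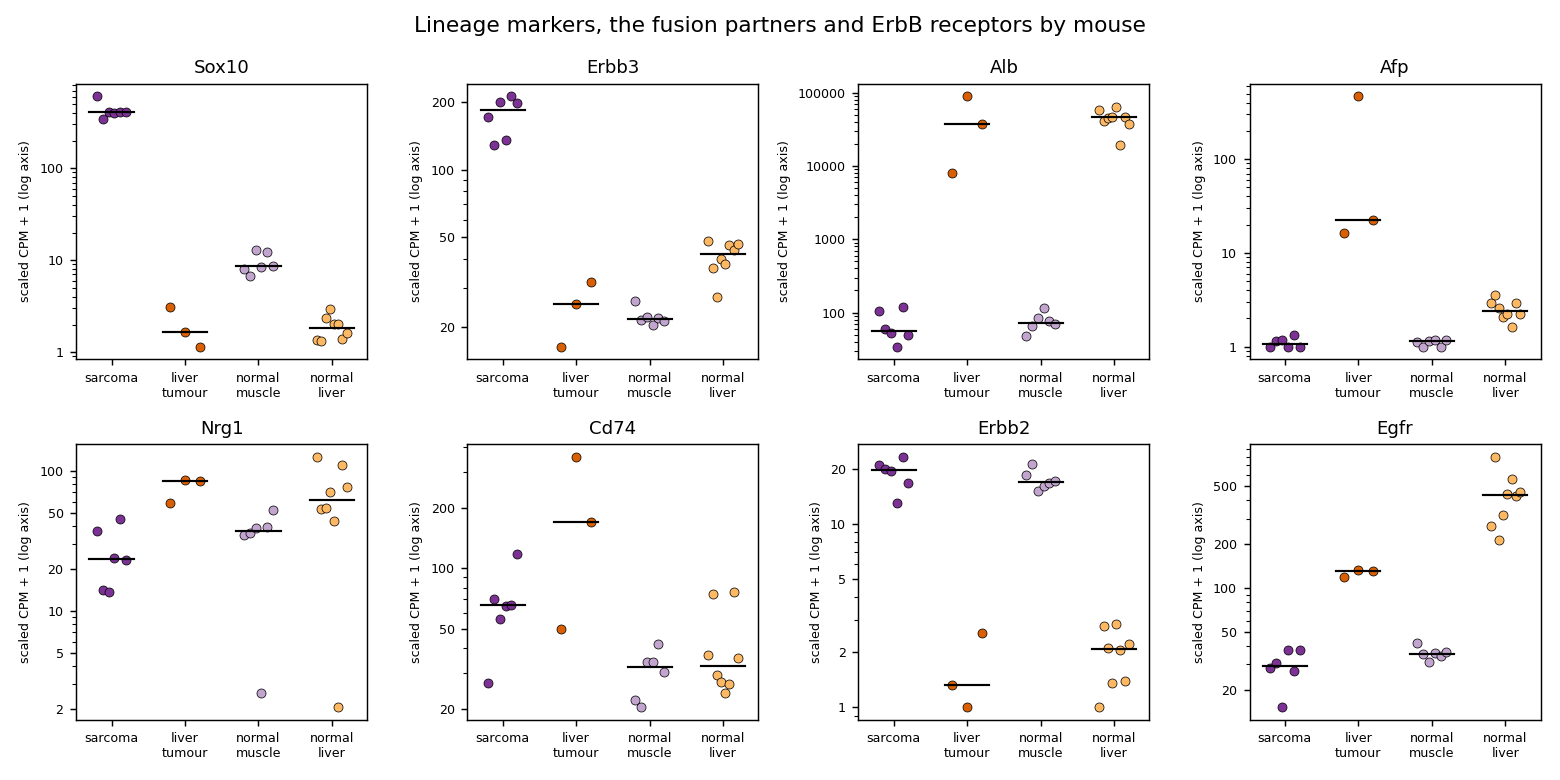
Levels of 8 genes in scaled CPM plus 1, on log axes, with 1 point per mouse and a line at the median for sarcoma, liver tumour, normal muscle and normal liver. Sox10 and Erbb3 separated the 6 sarcomas from the other 3 groups, Alb separated the liver groups from the others, and the Nrg1 panel shows the low muscle and liver of mouse M00246.

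Sarcoma and liver tumour differed across most of the transcriptome. Of 16557 genes tested, 4992 (30.2%) were higher and 4244 (25.6%) lower in sarcoma at an adjusted p below 0.05, so 55.8% of all genes changed, and the shares of gene lists given here are read against those. With mouse as a fixed block, which rests on the 2 mice that gave both tumours, 3948 genes were called (2049 higher and 1899 lower). Without TMM scaling, on library totals only, the split moved to 8561 higher and 2111 lower, and the median log2 fold change of all genes from 0.196 to 1.159: smaller changes are therefore relative to the scaling. Within the mouse numbers M00235 to M00238 (4 sarcomas, 1 liver tumour) 7882 genes were called, and within M00245 to M00249 (2 of each) 4626.

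The hepatocyte genes were on the liver tumour side. All 19 hepatic plasma protein genes were lower in sarcoma, with a median log2 fold change of -8.76, as were 16 of 16 genes of the urea cycle, gluconeogenesis and bile acid synthesis (median -7.17), 14 of 14 cytochrome P450 and conjugation enzymes tested, and 12 of 13 hepatocyte transcription factors tested. Ttr, which carries thyroid hormone and retinol-binding protein, was at 8.06 to 27.0 scaled CPM in sarcomas, against 4336, 4496 and 6490 scaled CPM in liver tumours. Hnf4a, a central regulator of hepatocyte genes, was at 0.243 to 0.964 scaled CPM in sarcomas, against 129.1, 310.4 and 247.2 scaled CPM in liver tumours. Otc, an enzyme of the urea cycle, was at 0.243 to 0.964 scaled CPM in sarcomas, against 176.8, 56.0 and 327 scaled CPM in liver tumours. No sarcoma reached the lowest liver tumour for any of the 3.

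Liver tumours were set against normal liver for the same lists. The normal livers were not uniform. Summed acute phase genes were at 117600 scaled CPM in the liver of M00246 and 74030 in that of M00247, against 4799 to 8422 in the others. Summed neutrophil genes were at 5743 scaled CPM in the liver of M00247, against 9.58 to 45.4 in the others. The part of these livers in the list counts here was not tested. Of the 19 plasma protein genes, 4 fell and none rose in liver tumour against normal liver, and of the 16 urea cycle, gluconeogenesis and bile acid genes 9 fell, against a background of 3.66% lower and 6.95% higher among all genes tested there. Ass1, the enzyme that joins citrulline and aspartate in the urea cycle, was at 194.3, 54.8 and 192.8 scaled CPM in liver tumours, against 356.6 to 1207 scaled CPM in normal livers, with a log2 fold change of -2.36 ± 0.45 (edgeR adjusted p = 0.00555). Arg1, the last enzyme of that cycle, was at 128.3, 372.4 and 415.9 scaled CPM in liver tumours, against 1341 to 2314 scaled CPM in normal livers (-2.43 ± 0.39, edgeR adjusted p = 0.00222). For both genes every tumour lay below every normal liver.

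Among 17 oncofetal liver tumour genes tested, 9 were lower and 2 higher in sarcoma than in liver tumour. Against normal liver 9 of 13 tested rose in liver tumour, beside 6.95% of all genes. Afp rose there by a log2 fold change of 6.83 ± 0.84 (edgeR adjusted p = 6.73e-04). Some members were high in 1 tumour. Gpc3, a surface proteoglycan of fetal liver, was at 2.57, 160.4 and 2.15 scaled CPM in the liver tumours of mice M00236, M00248 and M00249, against 0.208 to 4.42 scaled CPM in normal livers, and its call was lost without the tumour of M00248. H19, an imprinted noncoding RNA, was at 4.34, 33.8 and 6623 scaled CPM in the same tumours, against 2.03 to 34.8 scaled CPM in normal livers, and its call was lost without the tumour of M00249. Igfbp1, which binds insulin-like growth factors, is not a member of this list. It was at 495.9, 3575 and 242.1 scaled CPM in liver tumours, against 20.5 to 89.3 scaled CPM in normal livers, so all 3 tumours lay above all livers.

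The neural crest and glial programme was the counterpart on the sarcoma side. Of 15 neural crest and glial transcription factors tested, 13 were higher in sarcoma than in liver tumour and none was lower (median log2 fold change 6.22), and 19 of 22 Schwann lineage surface and matrix genes were higher and 1 lower (median 4.36). The summed level of the transcription factors was 1778 to 2192 scaled CPM in sarcomas, against 37.8 to 78.9 scaled CPM in liver tumours. Foxd3, a factor of early neural crest, was at 75.2 to 211.1 scaled CPM in sarcomas, against 0.161, 0.512 and 0.769 scaled CPM in liver tumours, and Pou3f1, a factor of Schwann cells before myelination, at 150 to 419.8 scaled CPM, against 0.804, 0.512 and 0.922 scaled CPM. S100b, a calcium-binding protein of glia, was at 396.1, 206.1, 210.6, 205.3, 273.6 and 231.3 scaled CPM in the 6 sarcomas, against 1.77, 0.768 and 0.922 scaled CPM in liver tumours, a log2 fold change of 7.80 ± 0.47 (edgeR adjusted p = 3.11e-07). No sarcoma came near a liver tumour in these genes, and that of M00235 was the highest in S100b and the lowest in Foxd3 and Pou3f1.

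The same lists were set against normal muscle, which holds nerve fibres of its own. Of the transcription factors 11 of 14 tested rose and 1 fell in sarcoma against muscle, and of the Schwann lineage genes 20 of 21 rose, beside a background of 33.5% higher and 31.3% lower. The one that fell was Tfap2a, a factor of neural crest that skin keratinocytes also express, at 15.8 to 26.7 scaled CPM in sarcomas, against 23.7 to 43.5 scaled CPM in muscle (log2 fold change -0.44 ± 0.18, edgeR adjusted p = 0.0486). Myelin genes were less uniform. Against liver tumour 8 of 11 tested were higher and 1 lower in sarcoma, but against muscle 4 rose and 3 fell. Ncmap, a protein of noncompact myelin, was at 0.437 to 2.31 scaled CPM in sarcomas, against 3.44 to 20.0 scaled CPM in muscle. The myelin gene lower in sarcoma than in liver tumour was Gjb1, a gap junction protein that both hepatocytes and Schwann cells use, at 0.179 to 1.61 scaled CPM in sarcomas, against 328.1, 489.4 and 450.5 scaled CPM in liver tumours.

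Of 13 Hox genes tested, out of 20 listed, 12 were higher in sarcoma than in liver tumour and none was lower. Against muscle 5 of 6 tested were higher and none lower, but against lung 4 of 8 were higher and 3 lower, beside 18.1% and 23.8% of all genes. The summed level was 31.8 to 173.1 scaled CPM in sarcomas and 83.7 to 204.2 in normal lungs. Hox genes specify position along the body axis. Hoxb7 was at 29.6, 12.4, 13.5, 10.8, 23.8 and 27.5 scaled CPM in sarcomas, against 2.41, 1.15 and 1.69 scaled CPM in liver tumours. Hoxc6 was at 16.8 to 32.1 scaled CPM in 5 sarcomas and at 0.528 scaled CPM in that of M00237, against 0.321, 0 and 0.154 scaled CPM in liver tumours. The count fell to 6 with limma-voom, and to 2 within mice M00235 to M00238, where there was 1 liver tumour.

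**Figure D2:**
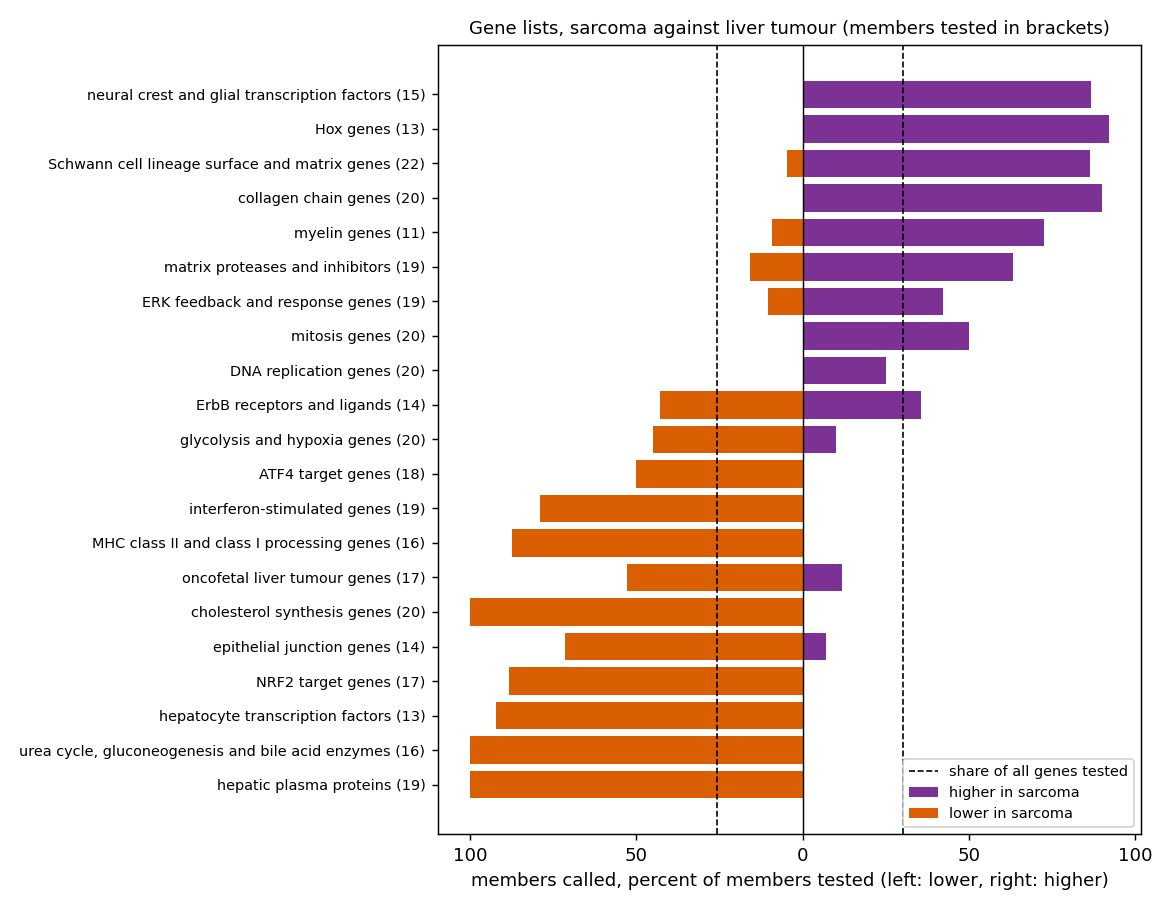
Share of the tested members of 21 gene lists called higher (to the right) or lower (to the left) in sarcoma than in liver tumour, edgeR adjusted p below 0.05, with the number tested in brackets and dashed lines at the shares over all genes tested. Neural crest, Hox, Schwann lineage and collagen lists reached the right, and hepatocyte, NRF2, cholesterol and MHC lists the left.

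By the size of the fold change, the genes highest in sarcoma were of 2 kinds. Megf10, a receptor for the uptake of cell remains, and Grik2, a kainate-type glutamate receptor subunit, were at 17.8 to 42.8 and 18.1 to 37.1 scaled CPM in the sarcomas, against 0 in all 3 liver tumours, so that Megf10 was at least 68.1-fold and Grik2 at least 52.3-fold higher (the mean of sarcomas over 3 counts in 1 liver tumour library). Kcna1, a voltage-gated potassium channel of axons, was at 58.5 to 211.6 scaled CPM in sarcomas, against 0, 0.384 and 0 scaled CPM in liver tumours. Clca3a2, Hoxb9 and Crispld1 were also at 0 in every liver tumour and at least 74.6-fold, 43.5-fold and 42-fold higher in sarcoma. The second kind were genes of the outer skin layers. Krt77 was at 7.50 to 157.2 scaled CPM in sarcomas, against 0, 0.128 and 0 scaled CPM in liver tumours, Krt2 at 0.146 to 669.6 scaled CPM, against 0, 0.128 and 0 scaled CPM, Sprr2a2 at 8.69 to 718.6 scaled CPM, against 0, 0 and 0.154 scaled CPM, and Lce1m at 2.04 to 74.7 scaled CPM, against 0 in all 3. These spread over up to several orders of magnitude between sarcomas, in which all 10 keratinocyte genes listed were higher than in liver tumour, and their summed level varied from 295.1 to 4109 scaled CPM; the part of skin cells in these values was not tested. The call of Krt2 was lost without any 1 of the 3 liver tumours, with log2 fold changes of 7.69 to 13.31 on leaving out a mouse, and with limma-voom, mouse as a fixed block, no filter or within either run. Members of the keratin, Sprr and Lce families have near-identical copies, between which counts may be split.

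The genes lowest in sarcoma were mostly genes of the liver. Cideb, which loads lipid onto lipoprotein particles in hepatocytes, was at 0 in all 6 sarcomas, against 290.9, 212 and 278.3 scaled CPM in liver tumours, at least 596-fold lower. Fgf21, a fasting and stress hormone of the liver, was at 0 in all sarcomas, against 35.7, 26.2 and 8.61 scaled CPM in liver tumours, at least 53.8-fold lower. Gimd1 was at least 54.1-fold lower. Apela, a peptide ligand of the apelin receptor, was at 0 to 0.33 scaled CPM in sarcomas, against 14.1, 387 and 123.1 scaled CPM in liver tumours, and at 0 to 0.223 scaled CPM in normal livers, so it was seen in liver tumours and hardly in their normal tissue (log2 fold change 10.35 ± 0.83 against normal liver, edgeR adjusted p = 4.34e-05). Cyp3a11, a drug-metabolising P450, was at 0.162 to 2.42 scaled CPM in sarcomas, against 3531, 12.5 and 2059 scaled CPM in liver tumours, and Apoa4, an apolipoprotein, at 0.968 to 4.73 scaled CPM, against 2123, 4978 and 85.3 scaled CPM. The remaining genes by this rule were Gstm3, Igfbp1, Akr1c20 and H2-Q1, of which Gstm3, Akr1c20 and H2-Q1 belong to families with near-identical copies.

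The receptors and ligands of the ErbB family split between the tumour kinds. Of 14 tested, out of 18 listed, 5 were higher and 6 lower in sarcoma, beside 30.2% and 25.6% of all genes. The receptor pair of neuregulin 1 was on the sarcoma side. Erbb2 was at 19.9, 18.9, 18.5, 11.97, 22.1 and 15.8 scaled CPM in sarcomas, against 0.321, 0 and 1.54 scaled CPM in liver tumours, a log2 fold change of 4.88 ± 0.71 (edgeR adjusted p = 1.81e-04); against muscle, at 14.04 to 20.1 scaled CPM, no change of Erbb2 was called (0.14 ± 0.16, edgeR adjusted p = 0.457). Erbb3 rose also against muscle, by 3.03 ± 0.15 (edgeR adjusted p = 4.58e-09). Erbb4, the other receptor that binds neuregulin 1, did not pass the filter on low counts in this comparison, with 0 to 0.643 scaled CPM in sarcomas, against 0.321, 0 and 2.61 scaled CPM in liver tumours.

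Egfr and its ligands Btc and Tgfa were on the liver tumour side. Egfr was at 14.3 to 37.0 scaled CPM in sarcomas, against 118.9, 132.4 and 130.8 scaled CPM in liver tumours (log2 fold change -2.15 ± 0.27, edgeR adjusted p = 6.12e-05). It fell in liver tumours against the 211.6 to 794.3 scaled CPM of normal livers (-1.70 ± 0.38, edgeR adjusted p = 0.0131). Btc and Tgfa went the other way, the only 2 of 11 listed ErbB genes tested there that rose, beside 6.95% of all genes. Btc, betacellulin, was at 26.8, 58.5 and 31.2 scaled CPM in liver tumours, against 1.01 to 6.01 scaled CPM in normal livers, and Tgfa, transforming growth factor alpha, at 18.2, 55.9 and 20.6 scaled CPM, against 8.55 to 16.1 scaled CPM (log2 fold changes 3.46 ± 0.37 and 1.54 ± 0.29, edgeR adjusted p = 1.94e-04 and 0.00599). In sarcomas both fell against muscle, by 2.65 ± 0.45 for Btc and 3.34 ± 0.36 for Tgfa on the log2 scale (edgeR adjusted p = 1.55e-04 and 2.82e-06). The muscle libraries held more skin keratinocyte transcripts (summed level 5020 to 11870 scaled CPM, against 295.1 to 4109 in sarcomas), whose part was not tested. Errfi1, an inhibitor of ErbB kinases, was at 6.07 to 19.5 scaled CPM in sarcomas, against 181.1, 320.9 and 220.3 scaled CPM in liver tumours. It fell in both tumour kinds against normal tissue, by 1.07 ± 0.23 on the log2 scale in liver tumour (edgeR adjusted p = 0.0118) and by 0.63 ± 0.23 in sarcoma (edgeR adjusted p = 0.029), a call that was lost without any 1 of 4 sarcomas or the muscle of M00238 and that turned to 0.28 on library totals only.

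Of the genes joined in the fusion, Nrg1 was lower in sarcoma, and Cd74 was lower with a call that depended on the model. Nrg1 was at 36.1, 13.1, 12.6, 22.7, 44.5 and 22.03 scaled CPM in the sarcomas of mice M00235, M00236, M00237, M00238, M00245 and M00248, against 57.9, 84.6 and 83.8 scaled CPM in liver tumours, and the groups did not overlap (log2 fold change -1.57 ± 0.38, edgeR adjusted p = 0.00478). On library totals only, in a fit of 4 groups and within either run of mouse numbers, Nrg1 was not called. Cd74 was at 25.7, 69.1, 55.1, 64.2, 64.8 and 117.4 scaled CPM in those sarcomas, against 48.7, 357.7 and 169.3 scaled CPM in liver tumours, and the groups overlapped (-1.53 ± 0.52, edgeR adjusted p = 0.0262; not called without the liver tumour of M00248, at -0.72, nor with limma-voom, mouse as a fixed block, the run of mouse numbers as a covariate, no filter, library totals only, 1 library of M00245 or within either run). Whether the 3′ end counts of Nrg1 or of Cd74 include transcripts of the transgene was not tested. Against normal tissue no change of Nrg1 was called in either tumour kind (log2 fold change -0.38 ± 0.54 for sarcoma against muscle and 0.27 ± 0.73 for liver tumour against liver, edgeR adjusted p = 0.56 and 0.861). Both normal groups held mouse M00246, which was far lower in Nrg1 than the other mice. Values without that mouse are not given here, so a change against the other mice is not settled.

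Genes that respond to or dampen ERK signalling were higher in sarcoma for 8 of 19 tested and lower for 2. Spry1 and Spry2, Sprouty inhibitors of receptor signalling, were at 32.9 to 51.9 and 49.7 to 90.8 scaled CPM in sarcomas, against 4.50 to 6.53 and 2.73 to 12.03 scaled CPM in liver tumours, without overlap. Etv1, an ETS factor stabilised by ERK signalling, was at 61.9 to 472.7 scaled CPM in sarcomas, against 3.05, 2.17 and 5.84 scaled CPM in liver tumours. Dusp6, a phosphatase of ERK, was at 125 to 216.1 scaled CPM in sarcomas and at 165.7, 334.2 and 51.5 scaled CPM in liver tumours, with overlap (log2 fold change -0.00 ± 0.44, edgeR adjusted p = 0.997).

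Matrix genes were mostly higher in sarcoma. Of 20 collagen chain genes, 18 were higher in sarcoma than in liver tumour and none lower (median log2 fold change 4.14), and the summed level was 8679 to 23600 scaled CPM in sarcomas, against 662.7 to 1138 scaled CPM in liver tumours. Col1a1, a chain of fibrillar collagen I, was at 2437, 1604, 1653, 5401, 1698 and 4924 scaled CPM in sarcomas, against 60.3, 145.8 and 108.1 scaled CPM in liver tumours (4.82 ± 0.62, edgeR adjusted p = 7.18e-05). Col20a1 was at 136.1 to 445.4 scaled CPM in sarcomas, against 0.321, 0.768 and 1.38 scaled CPM in liver tumours. Of 19 matrix proteases and inhibitors tested, 12 were higher and 3 lower. Mmp17, a membrane-anchored metalloprotease, was at 20.5 to 74.5 scaled CPM in sarcomas, against 0.128 to 0.321 scaled CPM in liver tumours. Fibroblast marker genes, some of them collagens, moved with these: 11 of 12 tested were higher and 1 lower in sarcoma, with a summed level of 7061 to 21390 scaled CPM in sarcomas, against 835 to 1720 scaled CPM in liver tumours, and the part of fibroblasts in the result was not tested. Epithelial junction genes lay on the other side, with 10 of 14 tested lower and 1 higher. Cldn3, a claudin of tight junctions, was at 0.179 to 0.729 scaled CPM in sarcomas, against 151.7, 161.5 and 135.3 scaled CPM in liver tumours.

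Genes of cell division were higher in sarcoma for 10 of 20 mitosis genes, and for 5 of 20 DNA replication genes, a share below the background. Mki67, the gene of the Ki-67 antigen of cycling cells, was at 67.5, 111.3, 100.1, 169.3, 83.1 and 190.9 scaled CPM in sarcomas, against 13.5, 24.4 and 16.8 scaled CPM in liver tumours (log2 fold change 2.73 ± 0.40, edgeR adjusted p = 1.83e-04). Top2a, the topoisomerase of dividing cells, was at 104.1 to 423.1 scaled CPM in sarcomas, against 43.7, 32.0 and 26.8 scaled CPM in liver tumours. The mitosis count was 16 on library totals only, 6 without the sarcoma of M00248, 4 without the liver tumour of either M00248 or M00249, and 4 with mouse as a fixed block.

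Several metabolic and stress programmes were lower in sarcoma than in liver tumour. All 20 cholesterol synthesis genes were lower, with a median log2 fold change of -3.59. The median summed level of these genes was 253.6 scaled CPM in sarcomas and 616.8 in muscle, 4257 in liver tumours and 2895 in normal livers. Hmgcs1, an early enzyme of that pathway, was at 41.4 to 76.3 scaled CPM in sarcomas, against 1255, 714 and 619.7 scaled CPM in liver tumours. All 20 nuclear genes of oxidative phosphorylation were lower (median -1.78), beside the lower mitochondrial share of counts. None of the 20 was called in liver tumour against liver or in sarcoma against lung. All 20 fell in sarcoma against muscle, beside 31.3% of all genes. Of 17 targets of NRF2, the regulator of antioxidant and detoxifying genes, 15 were lower and none higher (median -3.92). Gclc, the catalytic subunit of the enzyme that starts glutathione synthesis, was at 13.8 to 21.9 scaled CPM in sarcomas, against 284.8, 1040 and 451.1 scaled CPM in liver tumours. Of 18 targets of ATF4, the factor of the amino acid and stress response, 9 were lower and none higher, and of 20 glycolysis and hypoxia genes 9 were lower and 2 higher. The last count fell to 5 lower on library totals only and to 3 within mice M00245 to M00249.

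MHC and interferon genes were also lower in sarcoma than in liver tumour. Of 16 MHC class II and class I processing genes, 14 were lower and none higher, and of 19 interferon-stimulated genes 15 were lower and none higher. The normal tissues differed in the same direction. The median summed level of the interferon list was 191.9 scaled CPM in sarcomas and 125.9 in muscle, 839 in liver tumours and 461.6 in normal livers. Against muscle, 9 of 18 interferon-stimulated genes tested were higher in sarcoma and none lower, beside 33.5% and 31.3% of all genes. B2m, the light chain of MHC class I, was at 393.9 to 760.1 scaled CPM in sarcomas, against 3659, 4515 and 3271 scaled CPM in liver tumours. Irf7, an interferon regulatory factor, was at 1.07 to 4.23 scaled CPM in sarcomas, against 35.2, 39.7 and 26.6 scaled CPM in liver tumours. The MHC count was 9 without the liver tumour of M00248, 7 on library totals only and 5 with mouse as a fixed block, where the interferon count was 7. Marker lists of immune cells stood beside them: 5 of 14 macrophage genes tested, 4 of 7 T and cytotoxic lymphocyte genes, 1 of 6 B cell and plasma cell genes and 0 of 5 neutrophil genes were lower in sarcoma by edgeR, beside 25.6% of all genes, and none was higher. The summed macrophage markers were at 415.2 to 1068 scaled CPM in sarcomas, against 757.9 to 2240 scaled CPM in liver tumours, and the part of these cells in the MHC and interferon values was not tested.

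**Figure D3:**
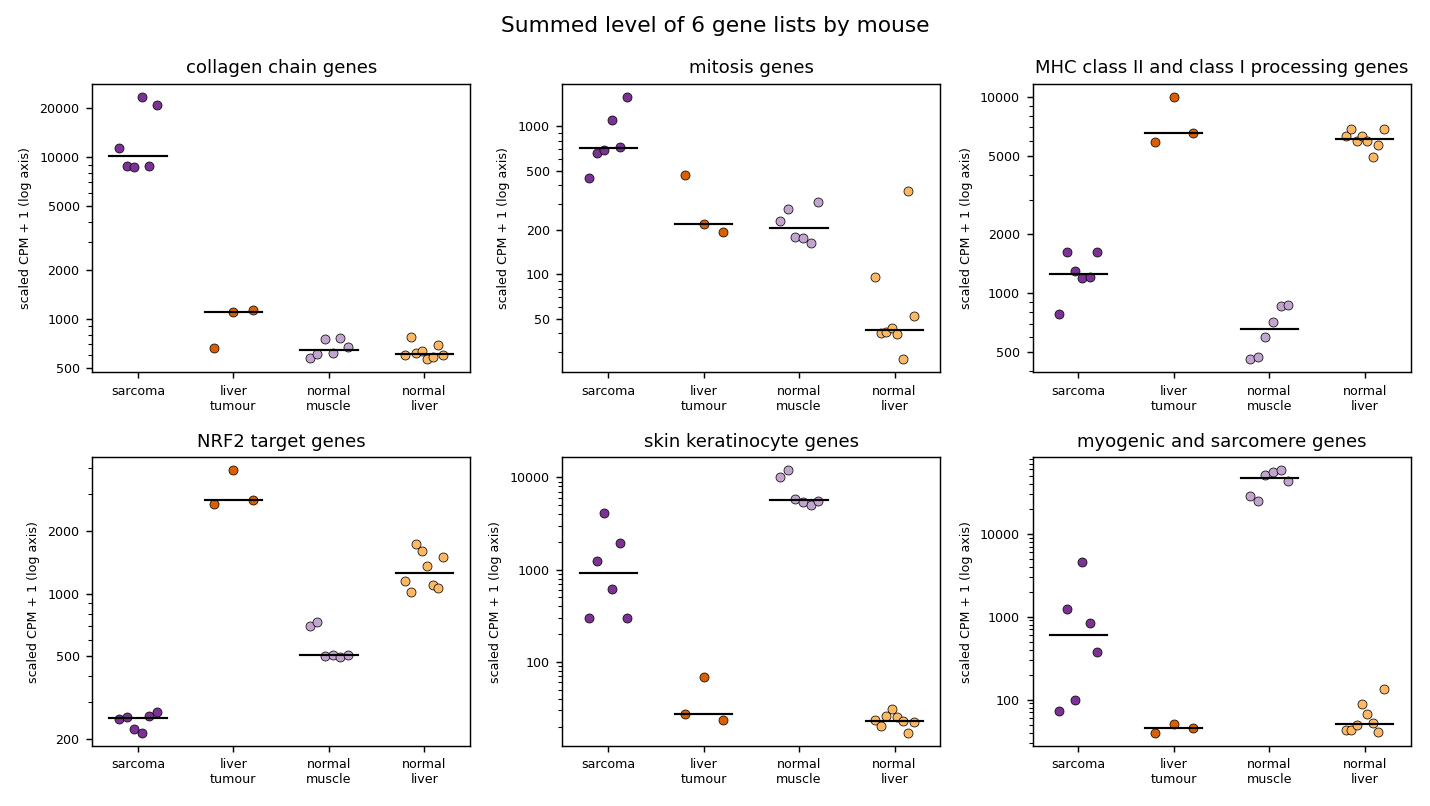
Summed levels of 6 gene lists in scaled CPM plus 1, on log axes, with 1 point per mouse and a line at the median for sarcoma, liver tumour, normal muscle and normal liver. Collagens were highest in the 6 sarcomas, NRF2 targets highest in the 3 liver tumours and lowest in the sarcomas, and the keratinocyte and sarcomere panels show how unequal the sarcomas were in skin and muscle transcripts.

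Each tumour kind was then set against normal tissue to find the programmes they share. Sarcoma against muscle called 4922 of 14697 genes higher and 4601 lower (64.8% in all), and liver tumour against liver called 921 of 13256 higher and 485 lower (10.6%). These comparisons share no library, though some of their libraries came from the same mice. Of 11963 genes tested in both, 305 (2.55%) were higher and 150 (1.25%) lower in both tumour kinds. The 305 were 8.02% of the sarcoma's higher calls and 36.9% of the liver tumour's, among genes of which 31.8% were higher in sarcoma, and the 150 were 4.06% and 40% of the lower calls, where 30.9% were lower in sarcoma. Another 95 genes were higher in sarcoma and lower in liver tumour, and 268 lower in sarcoma and higher in liver tumour. The size of the change differed between the tumour kinds for 70 of the 305 and 43 of the 150 (edgeR test of the difference of the 2 changes, adjusted p below 0.05), beside 34.9% of 17788 genes tested (15.9% with the larger value in sarcoma and 19% in liver tumour).

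These counts rested on the choice of libraries and of the model. With lung in place of muscle, 139 of the 305 and 59 of the 150 were called again in the same direction, where 41.9% of all genes were called (18.1% higher and 23.8% lower in sarcoma). Without the liver tumour of M00248, 838 genes were called against normal liver, and 150 were higher and 78 lower in both; without the normal liver of M00247, 709 genes were called in both, 464 of them higher. Without the normal liver of M00246, the mouse low in Nrg1, 588 genes were higher and 416 lower in liver tumour, and without the muscle of that mouse 5011 were higher and 4582 lower in sarcoma. With mouse as a fixed block, which leaves 1 residual degree of freedom for liver tumour against liver, no gene was called there by edgeR (947 had an unadjusted p below 0.05), and so none in both. A limma-voom fit with mouse as a random block called 1318 genes there and 310 higher and 166 lower in both. On library totals only, the shared counts were 804 higher and 43 lower, the calls 9249 higher and 2015 lower in sarcoma against muscle, and 1396 higher and 328 lower in liver tumour against liver.

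**Figure D4:**
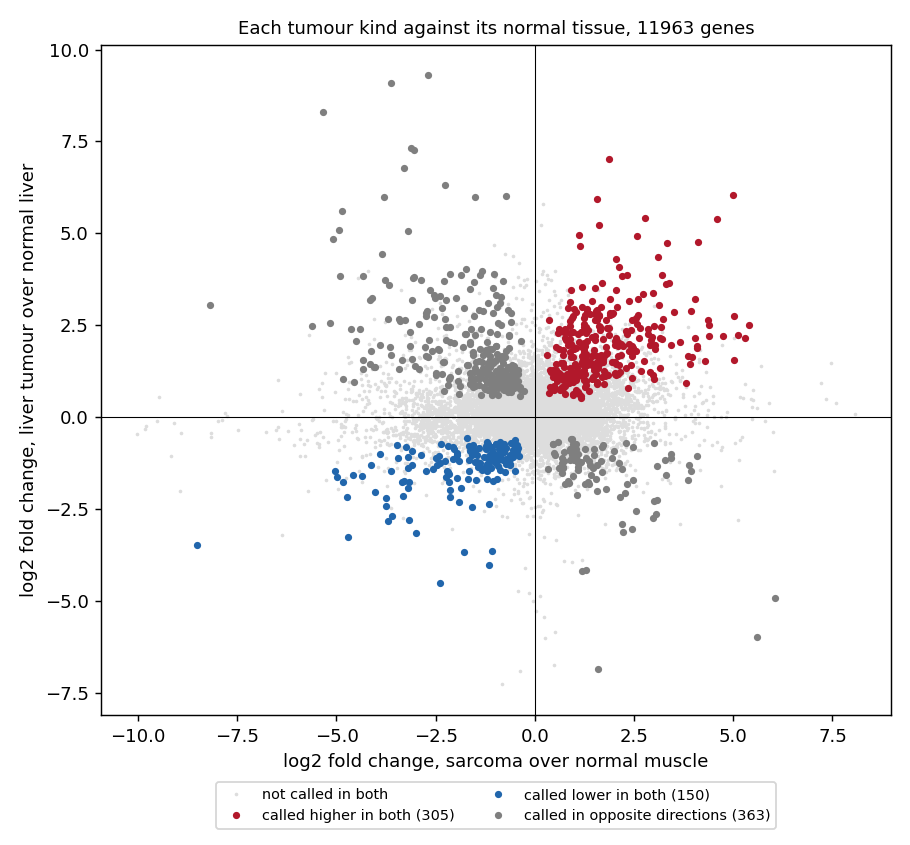
Log2 fold change of sarcoma over normal muscle (x axis) against that of liver tumour over normal liver (y axis) for 11963 genes, with colours for the 305 called higher in both, the 150 called lower in both and the 363 called in opposite directions. The sarcoma axis spreads more widely, and shared calls are a small part of either axis.

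Ordered by the smaller of their 2 changes, the 10 genes highest in both began with Dab1, the adaptor protein of reelin signalling. Dab1 was at 2.24 to 11.1 scaled CPM in sarcomas, against 0 to 0.473 scaled CPM in muscle, and at 1.77, 11.1 and 18.3 scaled CPM in liver tumours, against 0 to 0.223 scaled CPM in normal livers. Its log2 fold changes were 4.98 ± 0.57 in sarcoma and 6.05 ± 0.66 in liver tumour (edgeR adjusted p = 4.01e-06 and 2.09e-04). Angpt2, a ligand that loosens the contacts of vessel walls, was at 9.49 to 60.4 scaled CPM in sarcomas, against 0.638 to 4.48 scaled CPM in muscle, and at 22.02, 11.3 and 18.9 scaled CPM in liver tumours, against 0.834 to 2.41 scaled CPM in normal livers (3.39 ± 0.56 and 3.66 ± 0.33, edgeR adjusted p = 1.60e-04 and 5.06e-05). Rhoc, a small GTPase of the actin skeleton, was at 112.6 to 226.1 scaled CPM in sarcomas, against 17.98 to 40.8 scaled CPM in muscle, and at 216.2, 207.6 and 57.4 scaled CPM in liver tumours, against 12.2 to 26.1 scaled CPM in normal livers. No group of tumours overlapped its normal tissue in these 3 genes, as the naming rule required; of all genes tested, 19.9% lay higher and 23.1% lower without overlap in sarcoma against muscle, and 4.75% higher and 4.55% lower in liver tumour against liver.

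The others were Galnt6, which starts O-linked sugar chains, Glis3, a zinc finger factor, Gpx7, a peroxidase of the endoplasmic reticulum, Mpzl1, a cell surface glycoprotein, Cd276, an immune checkpoint molecule, and the collagens Col4a1 and Col1a1. Cd276 was at 7.80 to 15.2 scaled CPM in sarcomas, against 0.80 to 3.20 scaled CPM in muscle, and at 4.34, 14.3 and 6.30 scaled CPM in liver tumours, against 0 to 1.62 scaled CPM in normal livers. The liver tumour calls of Galnt6, Cd276 and Col1a1 were lost without the tumour of M00248, and those of the other 7 genes held without any 1 mouse. Galnt6 rested most on that tumour, at 3.05, 69.2 and 3.54 scaled CPM in liver tumours (M00236, M00248 and M00249), against 0.171 to 1.73 scaled CPM in normal livers. Of the 10, Angpt2 was not called against lung (log2 fold change 1.06 ± 0.49, edgeR adjusted p = 0.0979).

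The 10 lowest in both held several enzymes and a transporter. Lpin1, which makes diacylglycerol and regulates fatty acid use, was at 16.98 to 21.8 scaled CPM in sarcomas, against 72.8 to 244.7 scaled CPM in muscle, and at 24.8, 34.4 and 20.9 scaled CPM in liver tumours, against 74.0 to 485 scaled CPM in normal livers (-2.98 ± 0.27 and -3.15 ± 0.56, edgeR adjusted p = 4.11e-07 and 0.00414). Acacb, the acetyl-CoA carboxylase that restrains fatty acid entry into mitochondria, was at 2.51 to 5.99 scaled CPM in sarcomas, against 31.8 to 89.1 scaled CPM in muscle, and at 23.3, 4.86 and 11.7 scaled CPM in liver tumours, against 39.1 to 91.5 scaled CPM in normal livers. Slc38a3, a glutamine transporter, was at 0.448 to 1.62 scaled CPM in sarcomas, against 4.71 to 13.6 scaled CPM in muscle, and at 73.1, 309.1 and 107.9 scaled CPM in liver tumours, against 450.7 to 861.5 scaled CPM in normal livers. Arg1 fell too, with 3.22 to 11.5 scaled CPM in sarcomas, against 59.8 to 151.5 scaled CPM in muscle. The rest described here were Lrtm1, Sdr9c7, a dehydrogenase of skin, Homer2, a scaffold protein, Foxp2, a forkhead factor, and S1pr5, a receptor of sphingosine 1-phosphate. Muscle libraries held more skin keratinocyte transcripts than sarcomas (summed level 5020 to 11870 against 295.1 to 4109 scaled CPM). The part of skin cells in the falls against muscle was not tested. The fall of Homer2 in liver tumour was not called without the tumour of M00236 or any 1 of 7 normal livers, and that of Lrtm1 without the tumour of M00236.

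**Figure D5:**
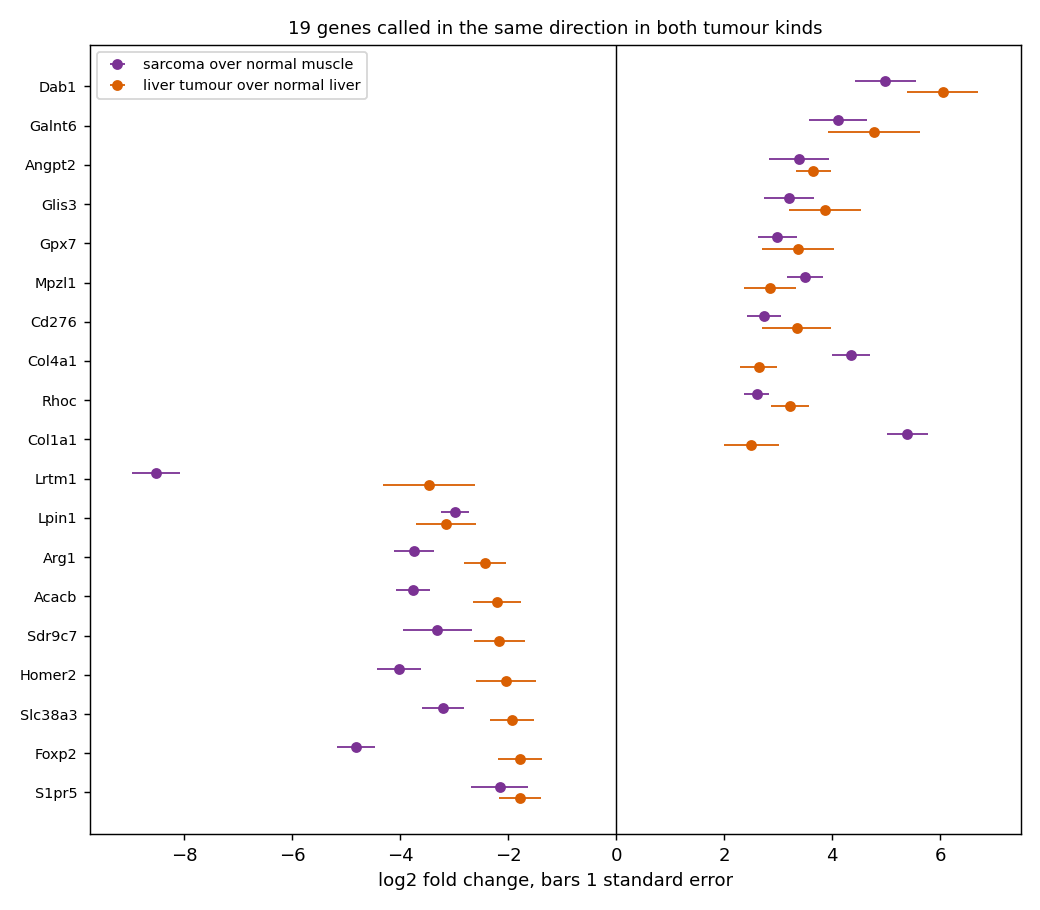
Log2 fold changes with bars of 1 standard error for the 10 genes named as higher and the 9 described as lower in both tumour kinds, sarcoma over normal muscle and liver tumour over normal liver. The pairs lie on 1 side of 0 by the rule that chose them; Col1a1 and Lrtm1 show unequal sizes.

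Collagens and antigen presentation genes had the most members called higher in both among the lists described. The list counts from here on are read beside the 2.55% of genes tested in both that were higher in both. Of all genes tested, 33.5% were higher in sarcoma against muscle, and 6.95% in liver tumour against liver. Of 16 collagen genes tested in both, 8 rose in both: Col1a1, Col1a2, Col3a1, Col5a1, Col6a3, Col4a1, Col4a2 and Col15a1, and all 8 rose also in sarcoma against lung. In sarcoma all 20 collagen genes rose against muscle, and in liver tumour 8 of 16 rose and 1 fell against liver. Col4a1, a chain of the basement membrane, was at 441.3 to 1165 scaled CPM in sarcomas, against 18.7 to 54.8 scaled CPM in muscle, and at 123.8, 188.2 and 191.3 scaled CPM in liver tumours, against 17.5 to 57.3 scaled CPM in normal livers. Col3a1, of fibrillar collagen III, was at 1466 to 5709 scaled CPM in sarcomas, against 72.7 to 129.8 scaled CPM in muscle, and at 140, 169.6 and 167.6 scaled CPM in liver tumours, against 22.3 to 75.5 scaled CPM in normal livers. The rise was larger in sarcoma for Col4a1, Col4a2, Col3a1, Col1a2 and Col1a1, by 1.80 ± 0.51, 1.98 ± 0.44, 2.60 ± 0.60, 2.27 ± 0.49 and 2.96 ± 0.68 on the log2 scale (edgeR adjusted p = 0.00838, 0.00109, 0.00157, 8.16e-04 and 0.0015). The count of 8 was 4 without the liver tumour of M00248.

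Of the matrix proteases and inhibitors 4 of 12 tested in both rose in both, among them Mmp2, a gelatinase, Timp1, and Plau, the urokinase plasminogen activator. Timp1, an inhibitor of metalloproteases, was at 9.15 to 38.2 scaled CPM in sarcomas, against 0.383 to 2.08 scaled CPM in muscle, and at 3.21, 22.6 and 6.15 scaled CPM in liver tumours, against 0.171 to 3.84 scaled CPM in normal livers, where the groups overlapped. The liver tumour call of Timp1 was lost without the tumour of M00248, that of Plau without that of M00236, and that of Mmp2 without any 1 of 9 libraries. The count was 2 without the tumour of M00248.

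In the mitosis list, 3 of 20 genes rose in both: Aurka, a kinase of the spindle poles, Cenpa, the histone of centromeres, and Cdc20, an activator of the complex that ends metaphase. In sarcoma 19 of 20 rose against muscle. In liver tumour the 3 rose and none fell, and all 20 fold changes were above 0 (0.69 to 2.77 on the log2 scale). Cdc20 was at 6.75 to 42.1 scaled CPM in sarcomas, against 4.21 to 13.1 scaled CPM in muscle, and at 32.6, 9.21 and 9.07 scaled CPM in liver tumours, against 0.208 to 7.88 scaled CPM in normal livers. Aurka was at 3.96 to 12.3 scaled CPM in sarcomas, against 0.48 to 3.14 scaled CPM in muscle, and at 15.3, 6.53 and 7.23 scaled CPM in liver tumours, against 0.812 to 4.805 scaled CPM in normal livers. One normal liver weighed on this list: Mki67 was at 55.7 scaled CPM in the liver of M00247, against 3.54 to 8.21 scaled CPM in the other 7, and at 13.5 to 24.4 scaled CPM in liver tumours. Without it 18 of the 20 genes rose in both, and without the liver tumour of M00236, or the normal liver of M00237, M00238 or M00248, none did.

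The promoters of these 3 genes are shown because they were the mitosis genes called in both tumour kinds and each holds a CCAAT box, a motif of many cell cycle promoters. Each line gives 28 bases of the strand of the gene, from the RefSeq promoter table on build GRCm38.p6, with the match in capitals (ATTGG is CCAAT on the other strand).
Aurka: tttacggtgagCCAATcacagaacggca
Cenpa: ttcaagtacccATTGGcttcagaccttt
Cdc20: cagtgtagcgaCCAATcggcaagggcga
They lie at chr2:172370605-172370632 on the minus strand, chr5:30666766-30666793 on the plus strand and chr4:118437380-118437407 on the minus strand, at -62 to -35, -120 to -93 and -64 to -37 from the start sites. In windows of 250 bases before to 50 after the start, searched on both strands, CCAAT was found in 15 of the 17 mitosis genes with an entry (88.2%), in 7 of 16 collagen genes (43.8%), in 13 of 14 cholesterol synthesis genes (92.9%) and in 37.9% of 27025 promoters. The motif TTTGAA, of the cell cycle homology region, was found in 13 of the 17 mitosis genes (76.5%), the 3 shown among them, and in 18.1% of all. A match is a description and not a bound site.

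Antigen presentation genes were lower in sarcoma than in liver tumour, and yet rose in both against normal tissue. Of 15 MHC class II and class I processing genes tested in both, 9 rose in both: Cd74, H2-Ab1, H2-Eb1, H2-DMa, H2-DMb1, Tap1, Tap2, Psmb8 and Psmb9. H2-Ab1, a chain of MHC class II, was at 24.9, 53.3, 76.1, 91.4, 64.9 and 103.7 scaled CPM in sarcomas, against 24.6 to 35.1 scaled CPM in muscle, and at 69.3, 329.4 and 179.1 scaled CPM in liver tumours, against 19.4 to 85.7 scaled CPM in normal livers; both pairs of groups overlapped (1.28 ± 0.26 and 2.28 ± 0.49, edgeR adjusted p = 6.53e-04 and 0.0129). Against lung, none of the 9 rose, and 14 of 15 genes of the list tested there fell in sarcoma. The count was 2 without the liver tumour of M00248. Macrophage genes moved the same way against muscle, with 11 of 13 tested higher in sarcoma, beside 33.5% of all genes. In liver tumour 1 of 14 macrophage genes rose, near the 6.95% of all genes. The part of macrophages was not tested. Ubd, an interferon-induced ubiquitin-like protein, was at 252.8, 371.4 and 158.5 scaled CPM in liver tumours, against 0.538 to 3.54 scaled CPM in normal livers, and at 0 to 0.604 scaled CPM in sarcomas.

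Of 15 ERK response genes tested in both, Dusp6 and Spry2 rose in both. Of 19 tested in sarcoma against muscle, 14 rose and 1 fell, and of 15 tested in liver tumour against liver 5 rose and none fell. Dusp6 was at 125 to 216.1 scaled CPM in sarcomas, against 24.8 to 48.6 scaled CPM in muscle, and at 165.7, 334.2 and 51.5 scaled CPM in liver tumours, against 32.3 to 98.6 scaled CPM in normal livers (2.56 ± 0.19 and 1.80 ± 0.42, edgeR adjusted p = 9.50e-08 and 0.0181). Without the liver tumour of M00248 neither was called in both, and without that of M00236 the count was 5. The rise of Spry2 in liver tumour was also not called without any 1 of 7 normal livers, with limma-voom, the run covariate or no filter. Of 9 oncofetal genes tested in both, Gpc3, Sox9, Sox4, Scd2 and Golm1 rose in both. Scd2, a fatty acid desaturase, was at 153.5 to 414.2 scaled CPM in sarcomas, against 35.6 to 64.3 scaled CPM in muscle, and at 186.8, 222.1 and 134.7 scaled CPM in liver tumours, against 4.47 to 18.6 scaled CPM in normal livers. Sox4, a factor of progenitor cells, was at 151.8 to 216.7 scaled CPM in sarcomas, against 23.4 to 62.6 scaled CPM in muscle, and at 21.7, 9.85 and 43.2 scaled CPM in liver tumours, against 2.23 to 12.1 scaled CPM in normal livers. The oncofetal count was 2 without the liver tumour of M00248.

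Some stress genes went in opposite directions in the 2 tumour kinds. Of 16 NRF2 targets tested in both, 6 fell in sarcoma and rose in liver tumour, beside 2.24% of all genes tested in both. None was called in the same direction. In all, 13 of 16 fell in sarcoma against muscle, beside 31.3% of all genes. Against liver, 7 of 17 rose in liver tumour, beside 6.95% of all genes. Nqo1, a quinone reductase, was at 0.729 to 2.02 scaled CPM in sarcomas, against 14.2 to 45.9 scaled CPM in muscle, and at 33.6, 94.6 and 32.6 scaled CPM in liver tumours, against 2.50 to 9.24 scaled CPM in normal livers. Its log2 fold changes were -4.10 ± 0.32 in sarcoma and 3.24 ± 0.36 in liver tumour, and their difference was -7.25 ± 0.52 (edgeR adjusted p = 1.27e-07, 2.46e-04 and 1.01e-09). Against lung, 11 of 15 NRF2 targets tested fell in sarcoma and none rose, while 3 of 16 ATF4 targets rose and 3 fell. Of ATF4 targets 4 of 14, and of cholesterol synthesis genes 3 of 20, fell in sarcoma and rose in liver tumour, beside the same 2.24%. Trib3, a pseudokinase induced by ATF4, was at 0.107 to 0.968 scaled CPM in sarcomas, against 2.69 to 9.24 scaled CPM in muscle, and at 22.8, 75.7 and 14.3 scaled CPM in liver tumours, against 1.61 to 7.13 scaled CPM in normal livers. Psph, the last enzyme of serine synthesis, was the 1 ATF4 target that rose in both, and in sarcoma its call (0.57 ± 0.23, edgeR adjusted p = 0.0398) was lost without any 1 of 10 libraries.

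The genes with the largest opposed changes, named by rule, were Aatk, Aspa, Chic1, Dct and Il1rap, higher in sarcoma, and H19, Slc7a11, Bglap3, Slpi and Gsta1, higher in liver tumour; Slc7a11 and Gsta1 are NRF2 targets and Slc7a11 also an ATF4 target in the lists. Aatk, a kinase of nervous tissue, was at 95.5 to 199.6 scaled CPM in sarcomas, against 8.80 to 24.6 scaled CPM in muscle, and at 2.09, 3.58 and 5.07 scaled CPM in liver tumours, against 8.04 to 45.7 scaled CPM in normal livers (difference of the log2 changes 5.80 ± 0.66, edgeR adjusted p = 6.55e-07). Dct, an enzyme of melanin synthesis, was at 1.25 to 12.5 scaled CPM in sarcomas, against 1.22 to 4.36 scaled CPM in muscle, and at 1.29, 0.384 and 0.769 scaled CPM in liver tumours, against 6.76 to 22.4 scaled CPM in normal livers (5.54 ± 0.73, edgeR adjusted p = 3.00e-06). Sarcoma and muscle overlapped in Dct. Aspa, Chic1 and Il1rap went the same way. The fall in liver tumour was not called for Aatk without the tumour of M00248, nor for Aspa and Il1rap without some normal livers. In the other direction, Gsta1, a glutathione transferase, was at 0 to 1.76 scaled CPM in sarcomas, against 11.7 to 28.6 scaled CPM in muscle, and at 45.8, 658.8 and 216.9 scaled CPM in liver tumours, against 0 to 18.5 scaled CPM in normal livers (-10.41 ± 1.19, edgeR adjusted p = 7.82e-07). Slc7a11, the cystine transporter, was at 0.0896 to 1.92 scaled CPM in sarcomas, against 1.92 to 25.4 scaled CPM in muscle, and at 1.93, 315 and 13.4 scaled CPM in liver tumours, against 0 to 0.359 scaled CPM in normal livers. Slpi, a protease inhibitor of mucosal surfaces, was at 2.87 to 9.33 scaled CPM in sarcomas, against 530.2 to 3570 scaled CPM in muscle, and at 74.4, 282.2 and 17.1 scaled CPM in liver tumours, against 6.33 to 31.9 scaled CPM in normal livers, and its liver tumour call was lost without the tumour of M00248. The part of skin transcripts in the muscle values of Slpi was not tested. H19 and Bglap3 owed the liver tumour side to 1 tumour each, H19 to that of M00249 and Bglap3 to that of M00236, at 2310 scaled CPM, against 0.896 and 0.922 scaled CPM in the other two.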

How the data were processed

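Tissue RNA was sequenced from the 3′ end with the QuantSeq kit, per the labels' protocols. The table of expected counts per gene was deposited by the authors; 8.35% of its values were not whole. The sources used here name neither the counter nor the genome build of this table. Counts had been assumed when the tests were chosen, so values were rounded, which moved the total by 0.00054%. Every count column of the table was matched to a sample by title. Genes were filtered with filterByExpr (minimum count 10), scaled by TMM and tested with edgeR 4.0.16 (quasi-likelihood test, Benjamini-Hochberg threshold 0.05) in R 4.3.3. DESeq2 1.42.0, limma 3.58.1, other filters and scalings, a block for mouse, the run of mouse numbers and leaving out each mouse were alternatives. Scaled CPM rest on 1 TMM scaling over sarcoma, liver tumour and 6 normal tissues.

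The labels give the mouse of each library, which pairs tissues of 1 animal; same-mouse deviations correlated at -0.1 and -0.0054 between tumours (2 pairs), -0.093 to 0.36 between sarcoma and muscle (4 pairs), and -0.16 between liver tumour and liver (2 pairs). Separate mice are separate animals, so p-values measure the spread between animals. On simulated data for sarcoma against liver tumour (15787 genes), 100 genes were changed by 1 and 100 by 2 on the log2 scale. All other genes were left equal between the groups. Of these changes 7% and 57% were recovered, with 5.88% false among the calls. In the real comparison 55.8% of genes were called, so the shares there may differ.

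Genes were named by rule: 9 lineage and ErbB genes; the 10 highest and 10 lowest between tumours at 20 scaled CPM or more without overlap; the 10 higher and 10 lower in both at 5 scaled CPM or more without overlap, ordered by the smaller change; 5 opposed genes in each direction; and from each list up to 4 by adjusted p and up to 4 shared. Mitochondrial genes, segments of antigen receptors and unnamed gene models were left out of the naming. Ubd, Trib3, Mki67, Hmgcs1 and others named as examples belong to these lists. The members and lists were chosen with earlier results of these data known. The deposited CPM table and the fibroblast libraries were not used. A few genes that the rule names are not reported here.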

Additional observations from a re-analysis of the deposited data

Results flagged for a closer look

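In 263 groups of 4 to 10 mice tested, 20 held a single mouse far from the others by Dixon's test, where chance alone gives about 1 in 20. The sarcoma of M00235 stood apart high in Sox10 (607 scaled CPM), Scd2 (414), Foxp2 (2.57), Otc (0.964), Fbp1 (3.43) and Tff3 (0.321), and low in Pou3f1 (150) and Col20a1 (136 scaled CPM). Its value of Tff3 is 3 counts, and that of Otc is also near the floor. The sarcoma of M00245 stood apart with 2.8 scaled CPM of Igfbp1, 0.33 of Apela and 4.73 of Apoa4. These came mostly from its library T1, at 5.93, 0.742 and 8.28 scaled CPM, against 0.297, 0 and 1.88 in T2. Single sarcomas were low in Egfr (14.3 scaled CPM, M00237), Hoxc6 (0.528, M00237) and Acacb (2.51, M00248). Among normal livers, that of M00247 stood apart in Cenpa (16.5 scaled CPM), Chic1 (22.9) and H19 (34.8), and that of M00246 in S1pr5 (22.5). Among muscles, Col3a1 was at 72.7 scaled CPM in M00246 and Dusp6 at 48.6 in M00237.

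The change against normal tissue differed between the tumour kinds for 24 named genes by edgeR's test of the difference. Its size (sarcoma's log2 change minus that of liver tumour) was 1.8 for Col4a1, 1.98 for Col4a2, 2.27 for Col1a2, 2.6 for Col3a1 and 2.96 for Col1a1. Among the other genes that moved the same way in both, it was 1.3 for Ass1, -1.43 for Acacb, -1.52 for H2-Eb1, -1.63 for Psph, -1.88 for Homer2, -1.9 for Scd2, -2.94 for Foxp2, -3.81 for Gpc3 and -4.93 for Lrtm1. Among opposed genes it was 5.8 for Aatk, 5.69 for Aspa, 5.56 for Chic1, 5.54 for Dct and 5.51 for Il1rap, and -13.6 for H19, -12.7 for Slc7a11, -11.9 for Bglap3, -11.2 for Slpi and -10.4 for Gsta1.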

How the results depend on the processing

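Of the 9236 genes called between sarcoma and liver tumour, the count was 3948 with mouse as a fixed block and 4626 within mice M00245 to M00249, and 8416 to 8921 on leaving out any 1 mouse. Against normal liver, 1406 genes were called in liver tumour, 2368 in 1 fit of the 4 groups, 0 with mouse as a fixed block (edgeR; 947 at an unadjusted p below 0.05), and 838 without the liver tumour of M00248. The 455 genes called the same way in both tumour kinds became 814 in 1 fit of the 4 groups, 0 with the fixed block, 847 on library totals only, 297 with a log2 change of at least 1, and 228 to 709 on leaving out a mouse. With mouse as a random block in limma-voom, 8654 genes were called between the tumours. The mitochondrial share difference (sarcoma minus liver tumour) was -8.84 to -3.89 percentage points on leaving out a mouse; it was -7.69 without the liver tumour of M00236 and -3.89 without that of M00249 (exact p = 0.0714 for both, where 0.0357 is the smallest possible). Within mice M00235 to M00238 the log2 change between tumours turned to 0.18 for Cd74 and 1.05 for H19. Without the liver tumour of M00236 Bglap3 turned to 0.88 between tumours and to -0.44 against liver. Errfi1 turned to 0.28 against muscle on library totals only. The causes were not tested. The 3 liver tumours and the depth of the libraries limit the smaller changes.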
